A study of Homo sapiens with 48 samples.

Results

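The genes described here are PHF19 and the other members of Polycomb repressive complex 2 (PRC2), read across 2 human cell lines after transfection of an siRNA against a transcript from the interval between C5 and TRAF1. PHF19 lies in the same stretch of chromosome 9. RefSeq lists CUTALP, PHF19, TRAF1, C5-OT1 and C5 there as consecutive genes. The 10 genes are PHF19, MTF2, PHF1, EZH2, EZH1, EED, SUZ12, JARID2, RBBP4 and RBBP7. They were found by their symbol or an older alias in the platform annotation, with each probe kept apart, which gave 17 of the 48803 probes on the array and 10 of 18852 genes named by a probe.

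Illumina bead arrays measured RNA from Huh7 cells, which come from a hepatoma, and from THP1 cells, which come from a monocytic leukaemia. Each line received INTG, the siRNA directed at the C5/TRAF1 intergenic transcript, or one of the Silencer Select negative control siRNAs, called NC1 and NC2. Every well held 300000 cells, was given 50 pmol of siRNA with Lipofectamine and was collected after 2 days. Each line was transfected in 4 experiments of separate culture passages with 2 wells per siRNA, so that 48 arrays fell into 6 groups of 8 (INTG, NC1 and NC2 in each line). All groups share the transfection, and no untransfected cells were analysed here. The 2 wells were averaged, and n below is 4 experiments per group.

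PRC2 places methyl groups on histone H3 (the mark H3K27me3), found at silenced genes. EZH2 or EZH1 carries the catalytic site and works only when bound to EED, which reads the finished mark, and SUZ12, which holds the complex together. RBBP4 and RBBP7 are histone-binding subunits shared with other chromatin complexes. PHF19, MTF2 and PHF1 are the mammalian Polycomb-like proteins, alternative accessory subunits that bring PRC2 to unmethylated CpG-rich DNA, while JARID2 belongs to a different form of the complex. In hepatoma cells EZH2 is known for silencing of tumour suppressor and liver differentiation genes, and in the myeloid lineage PRC2 genes are known targets of mutation.

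Shown first are the sequence that the INTG siRNA was designed against, as the labels' protocols give it, and the upstream windows of PHF19 and MTF2, the genes with a probe called for INTG in Huh7. The windows hold the 250 bases before the annotated start, read 5′ to 3′ on the gene's strand, from RefSeq's GRCh38.p14 promoter table. Capitals in the windows mark CpG dinucleotides, the feature that Polycomb-like proteins bind. The siRNA target was not located on a genome here.
INTG siRNA target: aactacgtgaagaggcctctg
PHF19, chr9:120868912-120869161, minus strand: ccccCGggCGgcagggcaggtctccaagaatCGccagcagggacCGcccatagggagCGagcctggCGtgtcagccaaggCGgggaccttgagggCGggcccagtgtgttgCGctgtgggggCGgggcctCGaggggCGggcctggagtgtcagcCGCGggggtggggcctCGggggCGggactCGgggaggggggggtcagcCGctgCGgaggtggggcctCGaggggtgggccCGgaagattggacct
MTF2, chr1:93079033-93079282, plus strand: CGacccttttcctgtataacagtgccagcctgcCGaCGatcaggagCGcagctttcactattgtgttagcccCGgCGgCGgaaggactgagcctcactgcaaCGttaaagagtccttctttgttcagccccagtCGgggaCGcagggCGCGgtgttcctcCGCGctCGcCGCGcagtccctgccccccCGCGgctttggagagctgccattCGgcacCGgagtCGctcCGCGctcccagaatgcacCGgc

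The PHF19 window held 21 CpG at a GC content of 75.6%, and 29.8% of the 27305 windows in the table held at least as many. The MTF2 window held 25 CpG at 64.4% GC, a count reached by 21.3% of all windows. All 10 members matched an entry, with 11 to 40 CpG and a median of 25.5, beside a median of 11 over all windows. The E2F motif, searched as TTTCCCGC, TTTCGCGC, TTTGCCGC and TTTGGCGC on both strands with overlaps allowed, was present in the windows of EZH1 and SUZ12, that is in 2 of 10 members and in 2.8% of all windows. The longest run that a member's window shared with the siRNA target was 5 to 8 bases, beside a median of 6 over all windows, and 0 windows held the whole target. The windows lie before the annotated start, so this says nothing about matches in the members' transcripts, which were not searched.

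The mean signal of an array was 240.6 to 396.8 in Huh7 and 122.2 to 478.2 in THP1. Both lines were checked against their markers. All 8 hepatocyte markers were detected on 24 of 24 Huh7 arrays and on 0 to 2 THP1 arrays. Of the 7 myeloid markers with a named probe, SPI1, ITGAM, CSF1R, PTPRC and MPO were detected on 0 Huh7 arrays and on 12 to 24 THP1 arrays, while CD14 and LYZ were detected on 24 Huh7 arrays and on 16 and 22 THP1 arrays. INTG arrays were dimmer than control arrays in some experiments. Divided by the controls, their mean signal was 1.02, 0.798, 0.738 and 0.819 in Huh7 experiments 1 to 4, and 0.983, 0.986, 1.06 and 0.462 in THP1. The INTG arrays of THP1 experiment 4 are thus far dimmer than the rest. Fitted THP1 differences of the member probes are given with and without them. Other THP1 values, such as levels, counts and gene lists, include them unless stated. Experiments 1 and 2 of a line shared one slide and experiments 3 and 4 another, and every experiment was laid out on its slide in the order NC1, NC2, INTG, so an effect of that order cannot be told apart from that of the siRNA.

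A probe was tested in a line when it was detected (detection p under 0.01) on at least 8 of 24 arrays. In each line 15 of the 17 probes, covering 9 of the 10 genes, met this. EZH1 was detected on 0 of 24 arrays in Huh7 and in THP1, and the second RBBP4 probe on 2 and 7, so these were not tested. MTF2 was detected on 21 Huh7 and 18 THP1 arrays, EED on 15 and 16, the second PHF1 probe on 11 and 12 and the first RBBP4 probe on 21 and 22. RBBP7 was detected on 24 and 23, the third PHF1 probe on 24 and 22, and the remaining tested probes on all 24 arrays of both lines. Levels are normalized log2 signals, and differences are on the same scale. They compare groups on one probe, and levels of different probes are not set against each other.

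PHF19 fell and MTF2 rose in Huh7 cells given INTG, while none of the 9 tested genes passed in THP1. In Huh7, 2 of the 3 PHF19 probes were lower by 0.77 and 0.84, to 0.588 and 0.559 of the control level, and MTF2 was 1.34-fold higher. The catalytic, core and JARID2 probes did not pass in Huh7 or in THP1, though JARID2 did in Huh7 under a stricter detection filter. Among all 13878 tested Huh7 probes the call was common. Higher calls made up 10.3% of all probes and 1 of 15 member probes, lower calls 12% and 2 of 15, and calls in either direction 22.3% and 3 of 15. The member share is thus close to the background, and the median difference was -0.01 over the member probes and 0.01 over all probes.

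**Figure D1:**
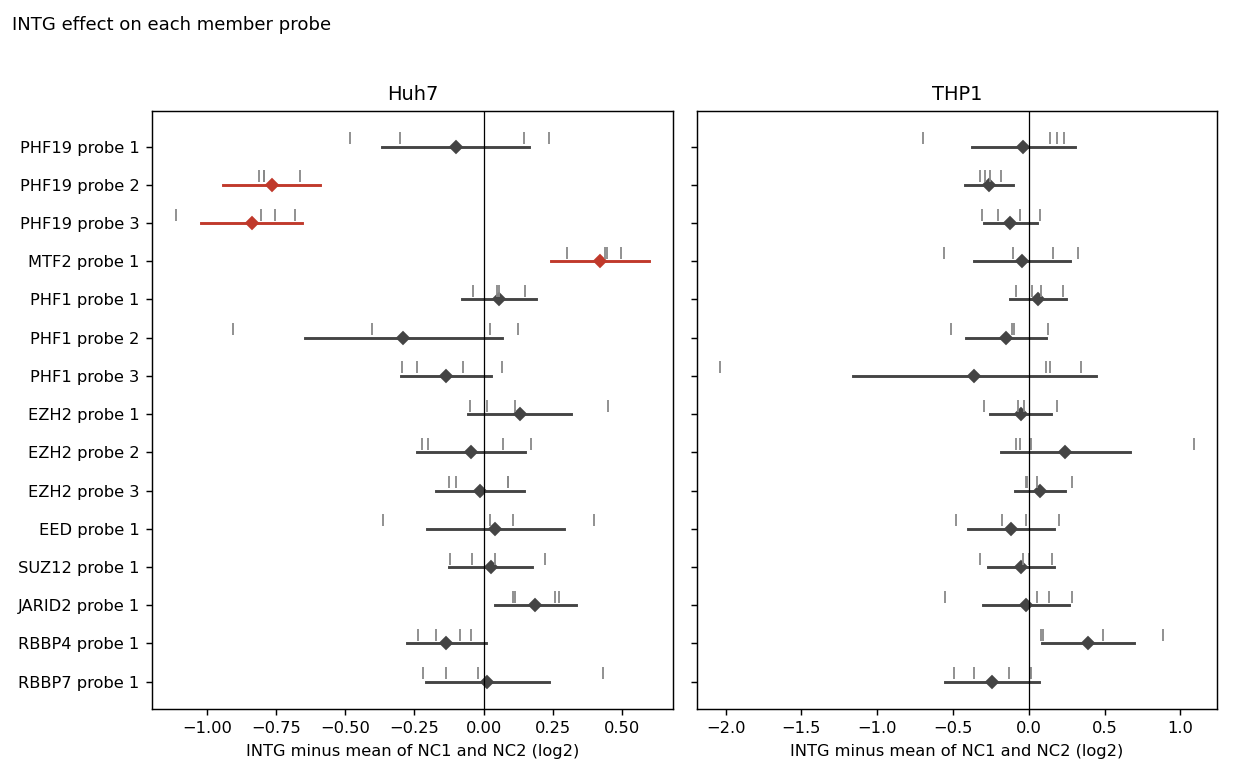
Difference of INTG from the averaged controls (log2, x axis) for each tested member probe (rows) in Huh7 (left) and THP1 (right). Diamonds are fitted differences over 4 experiments with 95% intervals, grey ticks the single experiments, and red marks an adjusted p under 0.05; the x scales of the panels differ. The red probes are PHF19 probes 2 and 3 (below 0) and MTF2 (above 0) in Huh7.

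PHF19 joins PRC2 through SUZ12 and reads the histone mark H3K36me3 with a Tudor domain. Its probe 3 read 6.77, 6.53, 7.05 and 6.48 in INTG-treated Huh7 cells in experiments 1 to 4. NC1 gave 7.56, 7.24, 8.01 and 7.24 on this probe, and NC2 gave 7.49, 7.19, 8.31 and 7.32. All 4 INTG means lay below all 8 control means. The share of all probes with such a separation is not given here, and 12% of all Huh7 probes were called lower. The groups averaged 6.71 ± 0.26 with INTG, 7.52 ± 0.36 with NC1 and 7.58 ± 0.50 with NC2 (SD, n = 4). The difference from the mean of the controls was -0.84 (95% interval -1.02 to -0.66, adjusted p = 6.61e-05 by limma).

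PHF19 probe 2 had 6.64, 6.81, 7.27 and 6.28 in INTG-treated Huh7 cells. With NC1 it had 7.36, 7.55, 7.88 and 7.27, and with NC2 7.51, 7.65, 8.0 and 6.90. INTG was lowest within every experiment, but the groups overlapped across experiments, because NC2 in experiment 4 was below INTG in experiment 3. The difference was -0.77 (95% interval -0.94 to -0.59, adjusted p = 9.24e-05). It was -0.77 against NC1 and -0.77 against NC2 on probe 2, and -0.81 and -0.87 on probe 3, all past the threshold. Per experiment, probe 2 gave differences of -0.79, -0.80, -0.66 and -0.81 and probe 3 gave -0.75, -0.68, -1.11 and -0.81.

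PHF19 probe 1 behaved otherwise in Huh7. Its INTG values were 6.35, 6.27, 6.99 and 6.66, against 6.30, 6.51, 7.37 and 6.60 with NC1 and 6.10, 6.63, 7.57 and 6.25 with NC2. INTG was above both controls in experiments 1 and 4 and below both in experiments 2 and 3. The difference was -0.10 (95% interval -0.37 to 0.16, adjusted p = 0.585), an interval that does not reach the values of the other probes. The array annotation ties probe 1 to one RefSeq transcript of PHF19 and probes 2 and 3 to a different one, and RefSeq lists 14 transcripts of the gene. Whether the probes read different transcripts was not tested.

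**Figure D2:**
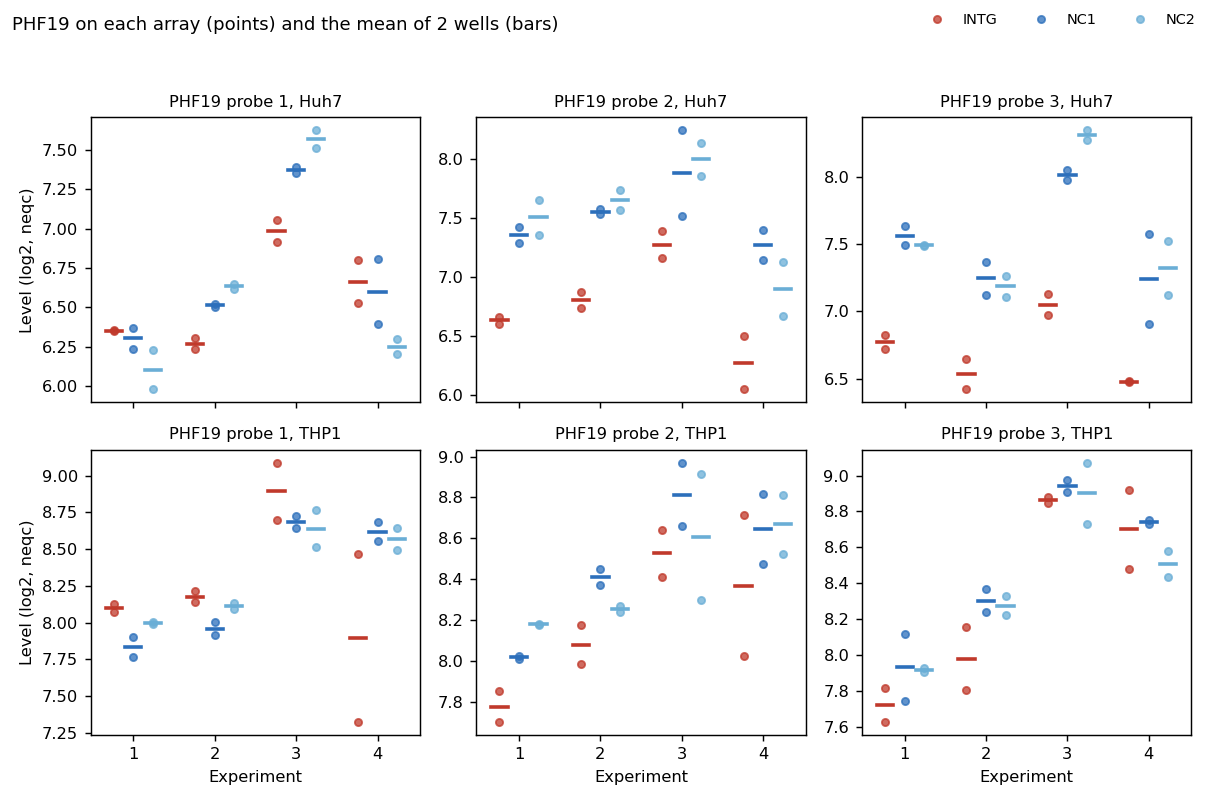
PHF19 level (log2, y axis) by experiment (x axis) for its 3 probes (columns) in Huh7 (top) and THP1 (bottom). Points are single arrays and short bars the mean of 2 wells, with INTG in red left of NC1 and NC2 in blue; y scales differ. In Huh7 INTG lies below both controls in every experiment on probes 2 and 3 but not on probe 1.

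MTF2, the Polycomb-like protein that brings PRC2 to CpG islands in embryonic stem cells of the mouse, moved the other way. Its single probe read 7.03, 7.21, 6.14 and 6.21 in INTG-treated Huh7 cells. With NC1 it read 6.73, 6.91, 5.64 and 5.62, and with NC2 6.72, 6.61, 5.64 and 5.93. INTG was above both controls within each experiment, yet the groups overlapped because experiments 3 and 4 were lower throughout. The difference was 0.42 (95% interval 0.24 to 0.60, adjusted p = 0.00415), and 0.42 against either control alone. By experiment it was 0.30, 0.45, 0.50 and 0.44.

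Against the averaged controls, the MTF2 call was lost under more settings than that of PHF19. With array brightness as a covariate it was 0.25 (adjusted p = 0.222), while PHF19 probes 2 and 3 gave -0.67 and -0.81 (adjusted p = 0.0120 and 0.00764). In experiment 1, where INTG and control arrays were about equally bright, MTF2 differed by 0.30 and PHF19 probes 2 and 3 by -0.79 and -0.75. INTG arrays were dimmer in Huh7 experiments 2 to 4, so brightness and siRNA cannot be told apart there. Whether brightness causes the differences was not tested. Without the experiment as a block none of the 3 probes passed (adjusted p = 0.115 and 0.0830 for PHF19 and 0.768 for MTF2).

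PHF1, the remaining Polycomb-like protein, was not called on any of its 3 probes in Huh7. Probe 1 averaged 7.82 ± 0.18 with INTG, against 7.83 ± 0.22 with NC1 and 7.70 ± 0.27 with NC2. The fitted differences of the 3 probes were 0.05, -0.29 and -0.14 (adjusted p = 0.552, 0.226 and 0.218). The interval of probe 2, which was near background, ran from -0.65 to 0.07. On probe 1 the interval was -0.08 to 0.19.

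EZH2, the methyltransferase of dividing cells, was not called on any of its 3 probes in Huh7. Its probe 3 averaged 8.65 ± 0.18 with INTG, against 8.64 ± 0.15 with NC1 and 8.69 ± 0.15 with NC2 in Huh7. The differences of its 3 probes were 0.13, -0.05 and -0.01. The intervals ran from -0.06 to 0.32 on probe 1, from -0.24 to 0.15 on probe 2 and from -0.17 to 0.15 on probe 3. EZH1, its counterpart in resting cells, was not detected in either line.

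The structural core was not called in Huh7. SUZ12 averaged 11.12 ± 0.21 with INTG, against 11.07 ± 0.35 with NC1 and 11.12 ± 0.29 with NC2 (difference 0.03, 95% interval -0.12 to 0.18). EED averaged 5.61 ± 0.43, against 5.68 ± 0.18 with NC1 and 5.45 ± 0.33 with NC2 (difference 0.04, 95% interval -0.21 to 0.29). RBBP7 averaged 8.08 ± 0.26 with INTG, against 8.07 ± 0.29 with NC1 and 8.06 ± 0.23 with NC2. The first RBBP4 probe was lower than both controls in each of the 4 Huh7 experiments, with differences of -0.05, -0.17, -0.24 and -0.09 from their mean, and the fitted difference of -0.13 did not pass (95% interval -0.28 to 0.01, adjusted p = 0.161).

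JARID2, which joins PRC2 in place of the Polycomb-like proteins and binds nucleosomes, was above both controls in all 4 Huh7 experiments. It averaged 7.18 ± 0.15 with INTG, against 6.94 ± 0.09 with NC1 and 7.05 ± 0.16 with NC2. The difference of 0.19 missed the threshold (95% interval 0.04 to 0.33, adjusted p = 0.0643), but JARID2 was called when the test was limited to probes detected on all 24 arrays. Against NC1 alone it was 0.24 (adjusted p = 0.0489) and against NC2 alone 0.13 (adjusted p = 0.267).

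Without a test, 5 of 15 member probes had INTG on one side of both controls in all 4 Huh7 experiments, beside 22.7% of all probes. PHF19 probes 2 and 3 and RBBP4 were below, and MTF2 and JARID2 above. Calls against NC1 and against NC2 separately with the same sign were made for 3 member probes, the PHF19 pair and MTF2, beside 11.2% of all probes. Between the 2 control siRNAs, NC2 against NC1, 0 member probes passed in Huh7, beside 0.476% of all probes. By limma 1 of 15 had an unadjusted p under 0.05, beside 1343 of all 13878 probes. That member probe was PHF1 probe 3, at -0.20 for NC2 minus NC1 (adjusted p = 0.459).

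**Figure D3:**
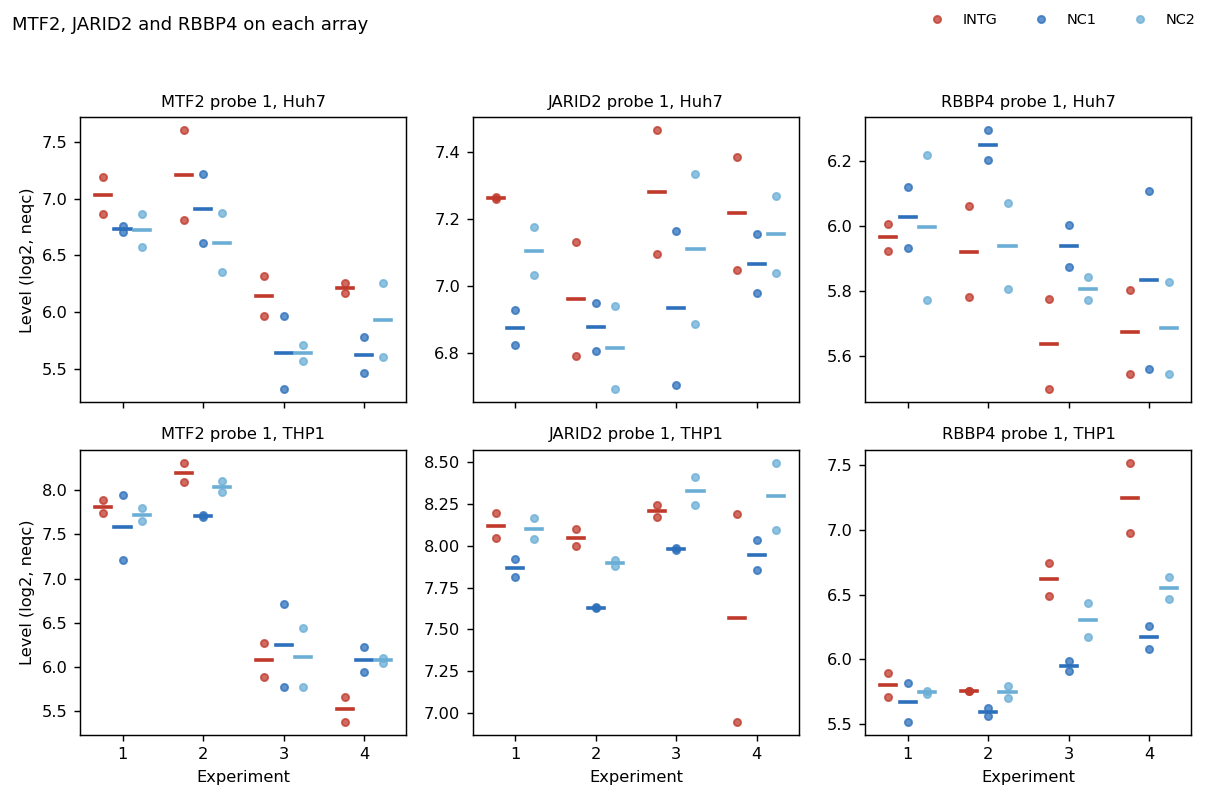
Level (log2, y axis) of MTF2, JARID2 and RBBP4 probe 1 (columns) by experiment (x axis) in Huh7 (top) and THP1 (bottom). Points are single arrays and short bars the mean of 2 wells, with INTG in red left of NC1 and NC2 in blue; y scales differ. MTF2 and JARID2 lie above both controls with INTG in each Huh7 experiment. In THP1 they do so in experiments 1 and 2 but not in experiments 3 and 4.

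In THP1, 0 of 15 member probes passed, beside 0.0444% of all 13524 probes. Without the dim arrays 0 passed as well, beside 36 of all 13524 probes. With all arrays, an unadjusted p under 0.05 by limma was found for 2 of the 15, beside 1612 of all 13524 probes. The 2 member probes were PHF19 probe 2 and RBBP4 probe 1. PHF19 probe 2 read 7.78, 8.08, 8.53 and 8.37 with INTG in experiments 1 to 4. It read 8.02, 8.41, 8.81 and 8.64 with NC1 and 8.18, 8.25, 8.61 and 8.67 with NC2. INTG was lowest in each experiment, with a difference of -0.26 (95% interval -0.42 to -0.10, adjusted p = 0.298), and -0.25 (adjusted p = 0.250) without the dim arrays.

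PHF19 probe 3 averaged 8.32 ± 0.55 with INTG in THP1, against 8.48 ± 0.45 with NC1 and 8.40 ± 0.41 with NC2. Its differences by experiment were -0.20, -0.31, -0.06 and 0.08, so the direction was not shared by all 4. The fitted value was -0.12 with all arrays and -0.19 (adjusted p = 0.350) without the dim ones. Probe 1 gave 0.18, 0.14, 0.23 and -0.70, and the single negative value came from the dim experiment. It was -0.04 with all arrays and 0.19 (adjusted p = 0.323) without the dim ones.

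MTF2 averaged 6.90 ± 1.30 with INTG in THP1, against 6.91 ± 0.86 with NC1 and 6.99 ± 1.04 with NC2. Its difference was -0.04 (95% interval -0.36 to 0.27), and 0.13 without the dim arrays. By experiment it was 0.16, 0.32, -0.10 and -0.56, the last from the dim arrays. RBBP4 probe 1 was above both controls in all 4 experiments, by 0.10, 0.08, 0.49 and 0.88 from their mean, the opposite side from Huh7. Its difference was 0.39 (95% interval 0.08 to 0.69, adjusted p = 0.373), and 0.22 (adjusted p = 0.397) without the dim arrays. RBBP4 and PHF19 probe 2 were the 2 of 15 member probes on one side of both controls in all 4 THP1 experiments, beside 8.84% of all probes.

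The remaining THP1 probes are given with all arrays first and then without the dim ones, and none passed either way. PHF1 gave 0.06 and 0.05 on probe 1, -0.15 and -0.03 on probe 2, and -0.36 and 0.20 on probe 3. EZH2 gave -0.05 and 0.03 on probe 1, 0.24 and -0.04 on probe 2, and 0.08 and 0.01 on probe 3. For SUZ12 the values were -0.05 and -0.12, and for RBBP7 -0.24 and -0.20. JARID2 gave -0.02 with all arrays and 0.16 without the dim ones (95% interval 0.01 to 0.31, adjusted p = 0.382), and EED gave -0.12 and 0.00. Leaving out the dim arrays thus turned the sign for PHF19 probe 1, MTF2, PHF1 probe 3, EZH2 probes 1 and 2, EED and JARID2. Counts against each control singly (0 member probes, beside 0.00739% of all probes) and between NC2 and NC1 (0 member probes and 0% of all probes) gave no call in THP1. Between NC2 and NC1 limma gave 1 member probe and 237 of all probes at an unadjusted p under 0.05.

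The INTG effect itself was compared between the lines. On 2 of its 3 probes the PHF19 effect was more negative in Huh7 than in THP1, by -0.50 on probe 2 (95% interval -0.72 to -0.28, adjusted p = 0.0175) and by -0.72 on probe 3 (95% interval -0.96 to -0.48, adjusted p = 0.00459). PHF19 probe 1 gave -0.06 (95% interval -0.50 to 0.37, adjusted p = 0.880). The 2 called probes were the only ones of 15 member probes to pass, beside 2.60% of all 11542 probes. Without the dim THP1 arrays the values of probes 2 and 3 were -0.51 and -0.65 (adjusted p = 0.0148 and 0.00385), and probe 1 gave -0.29 (adjusted p = 0.352). Again only probes 2 and 3 passed among the members, beside 523 of all 11542 probes, against 300 with all arrays. Neither probe passed when experiment 1 or experiment 3 was left out, at adjusted p from 0.0636 to 0.137, nor on either slide alone. Probe 2 also missed without experiment 2 (adjusted p = 0.144). With the slide as the only block probes 2 and 3 both missed (adjusted p = 0.526 and 0.324). The MTF2 effect was 0.47 higher in Huh7 (95% interval 0.12 to 0.81, adjusted p = 0.151) and the RBBP4 effect differed by -0.52 (adjusted p = 0.0724), both short of the threshold. Without the dim arrays MTF2 gave 0.29 and RBBP4 -0.36 (adjusted p = 0.227 and 0.0730 by limma).

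Levels of the complex were also compared between Huh7 and THP1 under the control siRNAs, with the slide as a random block. In bulk samples fewer cells of a type and less RNA per cell cannot be told apart, and here line, culture and slide cannot be told apart either. PHF19 was lower in Huh7 on probe 1, with 6.70 ± 0.47 under NC1 in Huh7, against 8.27 ± 0.44 in THP1, and a fitted difference of -1.63 (adjusted p = 0.00766). On probe 2 the difference was -0.93 (adjusted p = 0.0360) and on probe 3 -0.89 (adjusted p = 0.0785). All 3 PHF19 probes were thus lower in Huh7, of which 2 passed.

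JARID2, SUZ12 and EZH2 probe 2 were lower in Huh7 too. The difference was -1.01 for JARID2 (95% interval -1.43 to -0.59, adjusted p = 0.00125), -0.69 for SUZ12 (adjusted p = 0.0291) and -0.71 for EZH2 probe 2 (adjusted p = 0.0458). The EZH2 probes 1 and 3 gave -0.33 and -0.25 and did not pass. Calls covered 5 of 15 member probes, beside 49.8% of 15860 probes. PHF1 lay above 0 on its 3 probes by 0.04 to 0.12. The member median was -0.53, beside -0.06 over all probes, with several probes of PHF19, EZH2 and PHF1 counted singly. In absolute size the median difference was 0.53 for the member probes, beside 0.69 over all probes. Of the 5 calls, 3 were left without experiment 1 and 2 without experiment 2 or experiment 4.

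**Figure D4:**
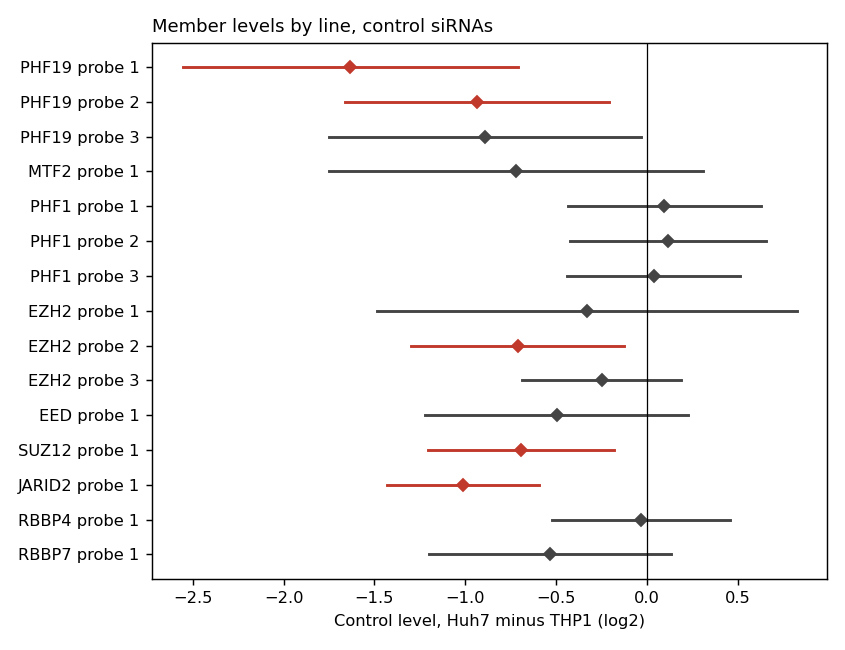
Control level in Huh7 minus that in THP1 (log2, x axis) for each tested member probe (rows), with NC1 and NC2 averaged. Diamonds are fitted differences with 95% intervals, and red marks an adjusted p under 0.05. PHF19 probe 1 at -1.63 is farthest below 0, and the PHF1 probes lie near 0.

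Other Polycomb genes were read from lists, with the brightest probe per gene. Their counts stand beside the 22.3% of all Huh7 probes called in either direction, so calls in a list of this size are common, and nothing particular to a list is read from them. Of 2 measured further PRC2 subunits, LCOR, whose locus also encodes a PRC2 accessory protein, fell in Huh7 by 0.65 (adjusted p = 0.00290) and fell by 0.49 on its other probe, and AEBP2 was not called. Of 16 measured PRC1 genes, which ubiquitinate histone H2A and bind the mark PRC2 leaves, 3 rose and 3 fell. The reader protein CBX7 rose by 0.34, though detected on 17 of 24 arrays, BMI1 by 0.38 and RYBP, of the variant complexes, by 0.37. SCMH1, CBX6 and CBX2 fell, with differences of -0.77, -0.53 and -0.25. Against NC1 alone CBX7, RYBP and CBX2 did not pass (adjusted p = 0.073, 0.055 and 0.089). The PRC1 list had a median of 0.01, as did all probes, and its share of called genes has no test.

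Some E2F factors drive EZH2 and EED in dividing cells. Of 7 measured genes of the regulator list, 3 fell in Huh7 and 0 rose, beside 12% of all probes called lower. E2F1 was listed but not tested. E2F2 differed by -0.86 (adjusted p = 0.000105), E2F3 by -0.27 and E2F4 by -0.23. E2F3 did not pass against NC1 alone (adjusted p = 0.119), nor E2F4 against NC2 alone (adjusted p = 0.137). E2F2 also differed between the controls, by 0.79 for NC2 minus NC1 (adjusted p = 0.00986), and was -0.47 against NC1 and -1.26 against NC2. RB1, RBL1, RBL2 and MYC were not called.

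HOX genes, classical Polycomb targets, had 13 measured members in Huh7, of which 3 fell and 1 rose, beside 22.3% of all probes called. HOXC6, HOXC8 and HOXD1 fell, with differences of -0.63, -0.41 and -0.34, the last detected on 12 of 24 arrays. HOXD1 differed by -0.49 from NC1 and by -0.19 from NC2 (adjusted p = 0.104). HOXC9, detected on 14 arrays, rose by 0.32, with differences of 0.08 from NC1 (adjusted p = 0.620) and 0.56 from NC2. Of 5 measured genes reported as silenced by EZH2 and of 3 demethylases and deubiquitinases acting on the Polycomb marks, 0 passed with limma. Among 15 measured genes of other complexes that use RBBP4 or RBBP7, HDAC2 rose by 0.42 and MTA1 fell by 0.26. In THP1 none of the lists held a called gene, with 2 to 14 genes measured in each.

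The myeloid markers that Huh7 also showed moved as well, CD14 by -0.76 and LYZ by 0.55, and of the hepatocyte markers APOB fell by 0.28. Their part in the Polycomb results was not tested.

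**Figure D5:**
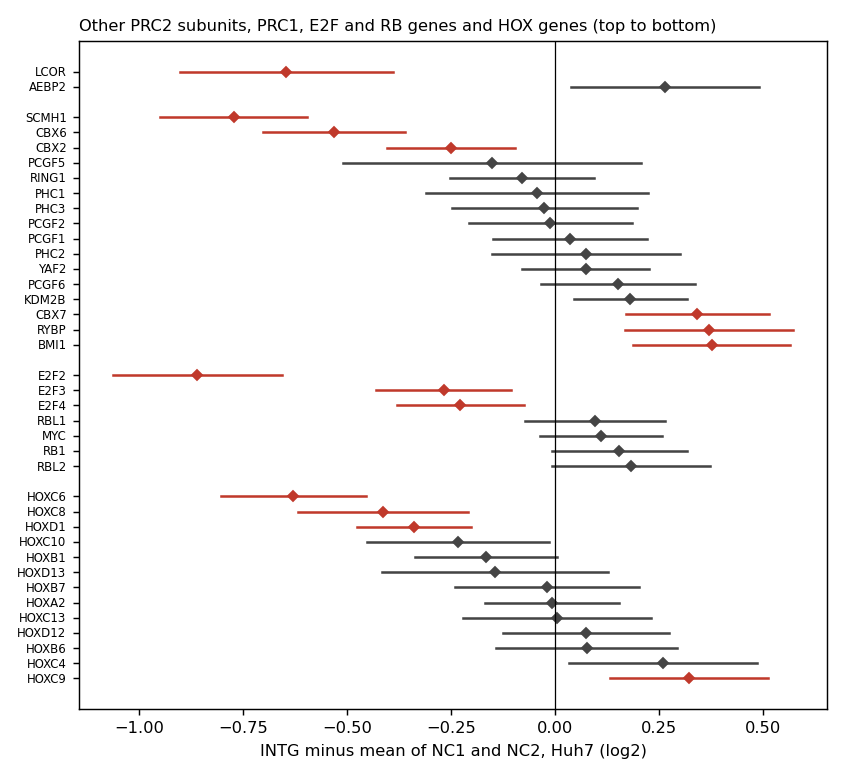
Difference of INTG from the averaged controls in Huh7 (log2, x axis) for genes of 4 lists, top to bottom the further PRC2 subunits, PRC1, the E2F and RB group, and HOX genes. Diamonds are fitted differences with 95% intervals, and red marks an adjusted p under 0.05. PRC1 has 3 red genes on each side of 0, and E2F2 at -0.86 is the lowest.

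The genes whose pattern was most like that of PHF19 were ranked by Pearson's r with its probe 3 over the 12 Huh7 experiment means, each minus the mean of its experiment. AP3B1 had an r of 0.989, SEH1L 0.988, GLYCTK 0.987, YOD1 0.987 and KRR1 0.985, and they differed between INTG and control cells by -1.16, -1.10, -0.52, -1.35 and -0.88. These 12 values share slides and 3 siRNAs, so r mostly restates the INTG difference. Among the members r was 0.923 for PHF19 probe 2, 0.361 for PHF19 probe 1, 0.600 for RBBP4, -0.738 for JARID2 and -0.874 for MTF2. EZH2 had -0.546, 0.15 and 0.12 on probes 1 to 3, and PHF1 had -0.334, 0.543 and 0.462. SUZ12, EED and RBBP7 had -0.235, -0.039 and -0.014.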

How the data were processed

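Total RNA of 48 transfected cultures was hybridised to Illumina bead arrays. Per the file headers, each array's deposited intensity is the average bead signal of a probe, with a detection p-value beside it and no visible normalization. A second deposited intensity table holds the authors' processed values, on a linear scale with column medians from -4.25 to 1.61. How it was made is not given in the sources used here. Limma and lumi are named in the submitters' processing notes.

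Of 48803 probes 8 had blank values. Through the platform annotation 28098 carry 1 symbol, 13 several and 20692 none. Signals were corrected by normexp (offset 16), quantile normalized over 48 arrays and logged to base 2 with neqc (limma 3.58.1, R 4.3.3). Probes detected at p under 0.01 on 8 of 24 arrays were tested. Wells were averaged, and limma was fitted with siRNA and experiment as terms, 6 residual degrees of freedom and Benjamini-Hochberg adjustment over all probes, at 0.05. The experiment was the block because its arrays share a culture passage per the labels; deviations correlated at 0.458 to 0.918 within experiments, and the slide could give the same. Line levels used controls with slide as a random block (correlation 0.568). The number of arrays limits the precision. Scripts were tested on simulated data. Genes named from lists are up to 4 called per direction; the 5 genes most like PHF19 were taken by r. The members and lists were chosen with earlier results of these data known. Alternatives covered the block, wells, pooled controls, background, normalization, the authors' values, the filter, weights, slides, brightness, dim arrays and each experiment left out.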

Additional observations from a re-analysis of the deposited data

Results flagged for a closer look

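Of 30 sets of 4 experiment differences (15 probes in 2 lines), 4 held one experiment far from the others relative to the range of the set. For independent sets chance flags about 1 in 20. In THP1 experiment 4, the one with dim INTG arrays, PHF19 probe 1 differed by -0.70, PHF1 probe 3 by -2.03 and EZH2 probe 2 by 1.09 between INTG and the controls. These flags share the same dim arrays and are not independent. In Huh7 experiment 3, PHF19 probe 2 differed by -0.66, the smallest of its 4 falls. The others were -0.79, -0.80 and -0.81, so this gap is small and stands out only because they lie close together.

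The INTG effect differed between Huh7 and THP1 by the test of the difference itself for PHF19 probe 2, at -0.50, and for PHF19 probe 3, at -0.72.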

How the results depend on the processing

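PHF19 probes 2 and 3 stayed lower in Huh7 past the threshold in 16 of 17 alternatives each, with values from -0.80 to -0.50 and from -0.96 to -0.55; the values nearest 0 came without background correction. MTF2 stayed higher in 12 of 16 and lay between 0.23 and 0.47; it missed the threshold with no block, with brightness as a covariate and on the discovery or validation slide alone (0.37 and 0.47, adjusted p = 0.0579 and 0.0621). Without the replicate block, 0 member probes passed in Huh7 (3 with it), 0 against both controls singly and 0 for the difference between lines (2 with it). Against both controls singly in Huh7, only PHF19 probe 3 of the 3 passed with brightness as a covariate and on the validation slide alone. With slide replacing experiment as block, only MTF2 passed against both. With the wells as separate arrays 1 probe, RBBP4, passed in THP1. The line difference had 0 calls with the slide as the only block and on either slide alone, and 0 to 2 when an experiment was left out. The control level had 0 calls of 5 with the authors' values, 3 with no detection filter and 2 to 4 when an experiment was left out. The cause of these shifts was not tested. No called value reversed. With the filter of detection on all 24 arrays MTF2 was not tested and JARID2 was called in Huh7. EED, PHF1 probe 2 and MTF2 were near background on part of the arrays, which limits their precision.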
